A study of Homo sapiens with 8 samples.

Results

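The 10 genes described here are outputs and feedback inhibitors of the ERK pathway: DUSP4, DUSP5, DUSP6, SPRY2, SPRY4, SPRED1, ETV4, ETV5, PHLDA1 and IER3. They were taken by name from the 58395 genes of the deposited count table, and all 10 were found. They were chosen with earlier results of these data known, so counts of them beside all genes are description only. RNA was sequenced from AB8 cells, an established human line of podocyte origin; podocytes are the filtering epithelial cells of the kidney glomerulus. All cells carried pIND21_hCrb2+GFP_S267A, which expresses human CRB2 carrying the S267A change, and GFP, when doxycycline is given, and had been passaged 3 to 8 times since the modification. The 4 induced libraries came from cells given doxycycline for 48 h, and the 4 non-induced libraries from cells not given it, with numbers 1 to 4 used in both groups. The labels do not say whether the numbers are separate cultures, so the p-values below measure the spread between these libraries. Where same-numbered libraries are compared with each other, the p-values measure the spread of the differences within numbers. No cells given doxycycline without the construct, and none with CRB2 lacking the S267A change, were analysed here, so the drug, raised CRB2, GFP and the change itself cannot be told apart.

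In the ERK pathway, growth factor receptors activate Ras, which sets off a chain of kinases, RAF, MEK and ERK. Active ERK raises the transcription of early response genes, and several of their products act back on the pathway: phosphatases of the DUSP family remove the activating phosphates from ERK, and Sprouty and SPRED proteins restrain the steps at Ras and RAF. The messenger levels of these genes are therefore commonly used as a readout of ERK output. They are not a measure of ERK phosphorylation, which was not assayed here.

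Libraries held 16829454 to 23081616 counted reads. CRB2 stood at 1731 to 4593 CPM (counts scaled to a common library size with TMM) in induced libraries and at 8.29 to 26.3 CPM in non-induced ones, so every library matched its label. Both libraries numbered 1 stood apart from the rest: across genes, their deviations from the group means correlated at 0.911 with each other and at -0.775 to -0.617 with those of the differently numbered libraries of the other group. Deviations cancel out within each group, so the negative values largely follow from the offset of library 1 and are no separate evidence of it. Induced library 1 also had the lowest CRB2 level, 1731 CPM against 4246 to 4593 CPM in the other induced libraries, although its rise over non-induced library 1 was 209-fold and the other pairs rose 164- to 206-fold. Results are therefore given with and without the libraries numbered 1. Of the defining podocyte markers, NPHS1 had 3 reads over the 8 libraries together, and WT1 averaged 2.54 CPM in induced and 3.18 CPM in non-induced libraries.

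Of the 10 genes, 9 were expressed at a level that could be tested, and 8 of these 9 had a log2 change below 0 in induced cells, SPRED1 being the exception, beside 49.9% of all tested genes. In such bulk RNA, fewer cells that express a gene and less of its RNA per cell cannot be told apart. In the comparison without regard to the library numbers, edgeR called 0 of the 9 at an adjusted p under 0.05, beside 6 of all 15637 tested genes (0.0384%). 1 member, IER3, had an unadjusted p under 0.05 there, beside 9.38% of all genes, and DESeq2 called the same gene and no other member, beside 1.86% of all genes. When the same-numbered libraries were compared with each other by fitting the number as a block, 4 of the 9 fell, IER3, ETV4, SPRY4 and PHLDA1, and 0 rose. In that fit 13.8% of all tested genes were called, 6.29% lower and 7.51% higher. The median log2 change over the 9 genes was -0.40 without the block and -0.41 with it, where the median of all tested genes was 0.00 in both fits.

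**Figure D1:**
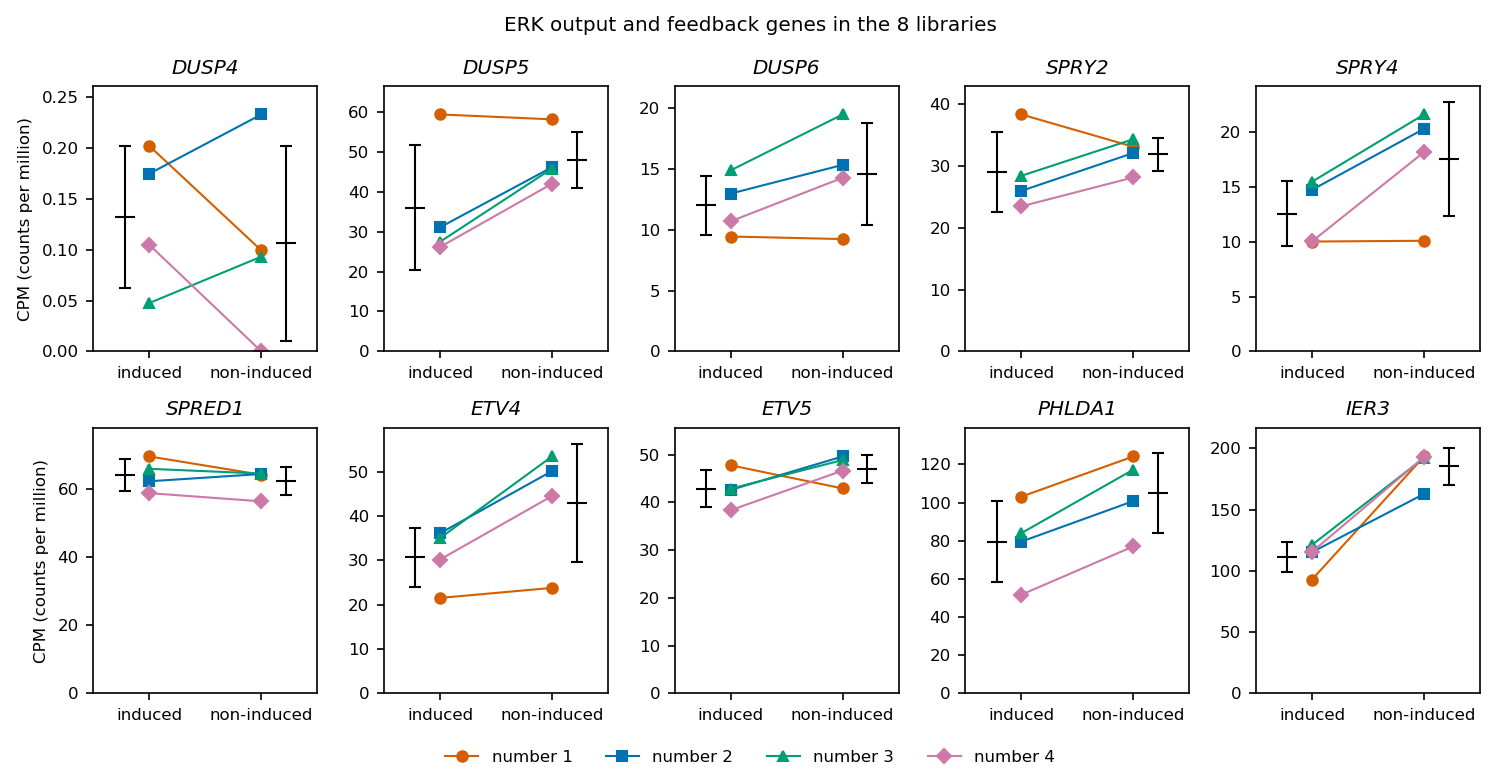
CPM of the 10 genes in each library, with induced libraries left and non-induced libraries right of each panel. Lines join libraries of the same number, and black bars give the mean ± SD of 4 libraries per group. In the IER3 panel all induced points lie below all non-induced ones, while in the panels of DUSP6, SPRY4 and ETV4 the line of number 1 runs below the other 3 lines, apart from SPRY4, where induced library 4 is at the same level.

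Per kilobase of exon the genes differed widely in level. IER3 was the most abundant, at 321 ± 27.7 TPM (read counts corrected for exon length) in induced and 521 ± 44.1 TPM in non-induced libraries (SD, n = 4 each). DUSP5 followed at 54.6 ± 26.3 TPM in induced and 70.1 ± 12.04 TPM in non-induced libraries. PHLDA1 stood at 38.95 ± 11.7 TPM in induced and 49.7 ± 10.98 TPM in non-induced libraries, and ETV4 at 33.2 ± 6.51 TPM in induced and 45.2 ± 13.7 TPM in non-induced libraries. SPRY2 stood at 37.7 ± 10.03 TPM in induced and 40.1 ± 4.13 TPM in non-induced libraries, with a mean above ETV4 in induced and below it in non-induced cells. ETV5 (29.1 ± 3.70 TPM in induced, 30.9 ± 1.77 TPM in non-induced) and SPRED1 (30.55 ± 3.33 TPM in induced, 28.9 ± 2.46 TPM in non-induced) likewise had a different order of means in each group, with overlapping libraries. DUSP6 (10.1 ± 1.93 TPM in induced, 11.97 ± 3.38 TPM in non-induced) and SPRY4 (7.49 ± 1.70 TPM in induced, 10.1 ± 2.90 TPM in non-induced) were lower still. Between neighbours in the order, libraries did not overlap at IER3 over DUSP5, ETV5 over DUSP6 and SPRY4 over DUSP4 in induced cells, nor at IER3 over DUSP5, SPRY2 over ETV5, SPRED1 over DUSP6 and SPRY4 over DUSP4 in non-induced cells. DUSP4, at 0.0721 TPM in induced and 0.0564 TPM in non-induced libraries, was far below the others.

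The DUSP genes encode dual-specificity phosphatases that inactivate MAP kinases. DUSP4, a nuclear member of the family (ENSG00000120875, GRCh38 chromosome 8, 29333064 to 29350668, minus strand), was close to absent: 4, 4, 1 and 2 reads fell on it in induced libraries 1 to 4 and 2, 5, 2 and 0 reads in non-induced libraries 1 to 4. A count of 0 allows up to 3 reads, or 0.13 to 0.178 CPM of a library's total, so no difference was detectable at this depth.

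DUSP5, a nuclear phosphatase specific for ERK (ENSG00000138166, chromosome 10, 110497838 to 110511544, plus strand), stood at 59.3, 31.1, 27.4 and 26.1 CPM in induced libraries 1 to 4, and at 58.1, 46.1, 45.8 and 42.0 CPM in non-induced libraries 1 to 4. Induced libraries 2 to 4 were below all non-induced libraries, and induced library 1 was above all of them. The log2 change with the block was -0.47 (95% interval -0.90 to -0.03) and did not pass (edgeR adjusted p = 0.155; 0.703 without the block). Without both libraries numbered 1 DUSP5 fell by 0.67 in log2, and passed both with the block (adjusted p = 1.07e-05) and without it (4.96e-04).

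DUSP6, the cytoplasmic ERK phosphatase often used as a marker of pathway output (ENSG00000139318, chromosome 12, 89347232 to 89353271, minus strand), was at 9.45, 13.0, 14.9 and 10.7 CPM in induced libraries 1 to 4, against 9.24, 15.3, 19.5 and 14.3 CPM in non-induced libraries 1 to 4. The groups overlapped, and both libraries numbered 1 were the lowest of their group. With the block its log2 change was -0.27 (SE 0.08, 95% interval -0.45 to -0.09), just outside the threshold (edgeR adjusted p = 0.0501), and without the block the adjusted p was 0.794. Without both libraries numbered 1 it passed with the block (adjusted p = 0.0146) and not without it (0.203).

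Sprouty proteins are inducible inhibitors that act between receptor tyrosine kinases and RAF. SPRY4 (ENSG00000187678, chromosome 5, 142310427 to 142326455, minus strand) had 10.01, 14.7, 15.5 and 10.02 CPM in induced libraries 1 to 4, and 10.1, 20.3, 21.6 and 18.2 CPM in non-induced libraries 1 to 4. Non-induced library 1 lay within the range of the induced libraries, and the other 3 non-induced libraries were above it. SPRY4 fell with the block by 0.46 in log2 (SE 0.11, edgeR adjusted p = 0.0157), was not called without it (0.618, or 0.0634 without both libraries numbered 1), and the call was lost without pair 2, 3 or 4 (0.0559, 0.0669 and 0.0602).

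SPRY2 (ENSG00000136158, chromosome 13, 80335976 to 80340951, minus strand) stood at 38.3, 26.0, 28.4 and 23.5 CPM in induced libraries 1 to 4 and at 33.1, 32.1, 34.3 and 28.1 CPM in non-induced libraries 1 to 4. As for DUSP5, induced library 1 was the highest of all 8. The log2 change of SPRY2 with the block was -0.15 (95% interval -0.34 to 0.04) and did not pass (edgeR adjusted p = 0.276), whereas without both libraries numbered 1 SPRY2 passed with the block (0.00784) and not without it (0.0989).

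Sequence before a RefSeq start of both Sprouty genes is shown because they are the members of one family that had such sequence at hand and differed in call. RefSeq (GRCh38.p14) entries were matched for 5 of the 10 genes, SPRY4, PHLDA1, DUSP6, SPRY2 and SPRED1, and the 250 bases before each start were searched on both strands. For SPRY2 the whole window of its first entry is given, and for SPRY4 the 80 bases outside annotated exons. That SPRY2 window lies outside the annotated gene span. The SPRY4 window lies within the gene span, with 170 of its 250 bases in annotated exons, so these windows are not like for like. Capitals mark the letters CCGGAA, called ETS core here, or a CRE core (TGACG). The shorter ETS letters GGAA were not searched.
SPRY2, chr13:80341127-80341376, minus strand: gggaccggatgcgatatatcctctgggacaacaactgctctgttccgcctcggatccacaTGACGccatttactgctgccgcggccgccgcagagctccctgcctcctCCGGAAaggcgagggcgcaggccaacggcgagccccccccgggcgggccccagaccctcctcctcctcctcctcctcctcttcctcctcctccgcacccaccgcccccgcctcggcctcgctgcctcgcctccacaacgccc
SPRY4, chr5:142324418-142324497, minus strand: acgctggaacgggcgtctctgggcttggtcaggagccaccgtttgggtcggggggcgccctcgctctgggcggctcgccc
SPRY4, chr5:142324298-142324327, minus strand: tcttcggagccgTGACGgactgaattccct
The SPRY2 window shown held both motifs, at 142 bases (ETS core) and 190 bases (CRE core) before the start. The longer SPRY4 stretch held neither CCGGAA nor TGACG, though it does hold GGAA. The shorter one carries the CRE core that lay 68 bases before the RefSeq start, inside an annotated SPRY4 exon. An ETS core was present in 14.5% and a CRE core in 21.2% of all 35116 windows of the same length. The windows of the other 2 SPRY2 starts and those of DUSP6 and SPRED1 had no match to either, and none of the 7 windows of the 5 genes held an AP-1 site (TGANTCA, in 6.57% of all windows) or a CArG box (in 1.16%). A missing match says only that these letters were not in the window.

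SPRED1, which brings the Ras inhibitor neurofibromin to the membrane (ENSG00000166068, chromosome 15, 38252326 to 38357249, plus strand), was at 69.6, 62.3, 66.0 and 58.9 CPM in induced libraries 1 to 4 and at 64.3, 64.5, 64.6 and 56.4 CPM in non-induced libraries 1 to 4. The groups overlapped. Its log2 change with the block was 0.04 (95% interval -0.05 to 0.13, edgeR adjusted p = 0.605), so the interval excluded a fall of the size seen for IER3, ETV4, SPRY4 or PHLDA1.

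ETV4 and ETV5 are ETS transcription factors of the PEA3 group, induced by fibroblast growth factor and ERK signalling. ETV4 (ENSG00000175832, chromosome 17, 43527844 to 43579620, minus strand) stood at 21.5, 36.1, 35 and 30.2 CPM in induced libraries 1 to 4, against 23.8, 50.1, 53.4 and 44.5 CPM in non-induced libraries 1 to 4. Each induced library was below its same-numbered non-induced one, and the groups overlapped through non-induced library 1. ETV4 fell with the block by 0.46 in log2 (SE 0.07, edgeR adjusted p = 9.65e-04), and the call held without each of the 4 pairs (adjusted p 2.83e-05 to 0.0145). Without the block its adjusted p was 0.626, and 0.00361 when both libraries numbered 1 were left out.

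ETV5 (ENSG00000244405, chromosome 3, 186046308 to 186110318, minus strand) was at 47.8, 42.6, 42.9 and 38.3 CPM in induced libraries 1 to 4 and at 42.9, 49.6, 48.9 and 46.6 CPM in non-induced libraries 1 to 4. Pairs 2 to 4 were lower and pair 1 higher in induced cells. The log2 change with the block was -0.13 (95% interval -0.28 to 0.01) and did not pass (edgeR adjusted p = 0.205), though without both libraries numbered 1 ETV5 passed with the block (0.0115) and not without it (0.062).

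PHLDA1 encodes a pleckstrin homology-like protein whose transcript follows growth factor stimulation (ENSG00000139289, chromosome 12, 76025447 to 76033932, minus strand). It stood at 103, 79.6, 84.0 and 51.7 CPM in induced libraries 1 to 4, and at 124, 101, 117 and 77.0 CPM in non-induced libraries 1 to 4. The groups overlapped because libraries of different number lay far apart, yet every induced library was below its same-numbered partner. PHLDA1 fell with the block by 0.41 in log2 (SE 0.05, edgeR adjusted p = 1.61e-04) and without each pair (adjusted p 7.3e-05 to 0.00138), and was not called without the block (0.637, or 0.444 without both libraries numbered 1). An ETS core, read on the opposite strand and in capitals here, lay 89 bases before its RefSeq start, inside an annotated PHLDA1 exon.
PHLDA1, chr12:76031848-76031877, minus strand: gaggagaggagtTTCCGGggctcgggtccg

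IER3, also called IEX-1, is an early response gene that encodes a short-lived protein acting on cell survival and on ERK itself, and it is also induced by NF-kB (ENSG00000137331, chromosome 6, 30743199 to 30744554, minus strand). It had 92.9, 115, 121 and 116 CPM in induced libraries 1 to 4, and 193, 163, 192 and 193 CPM in non-induced libraries 1 to 4. All induced libraries were below all non-induced libraries, which was true of 1 of the 9 tested members and of 3.22% of all tested genes. IER3 averaged 111 ± 12.5 CPM in induced and 185 ± 15.0 CPM in non-induced cells (SD, n = 4 each), a ratio of 0.600.

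Without the block the log2 change of IER3 was -0.74 (SE 0.09) with an unadjusted p of 2.79e-05 and an edgeR adjusted p of 0.0624, just outside the threshold. IER3 fell with the block, by the same 0.74 in log2 (SE 0.09, adjusted p = 0.0075), a call that was lost without pair 4 (0.0827). Without the block it passed in DESeq2 (4.17e-09), with library totals in place of TMM (0.0424), with a filter at 10 CPM (0.0414), with no filter (6.59e-04), without induced library 1 (0.0114) and without both libraries numbered 1 (3.18e-04). It did not pass there with RLE (0.0605) or upper-quartile scaling (0.0514), without robust estimation (0.0669), or without any 1 of the other 7 libraries (0.0838 to 0.32).

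**Figure D2:**
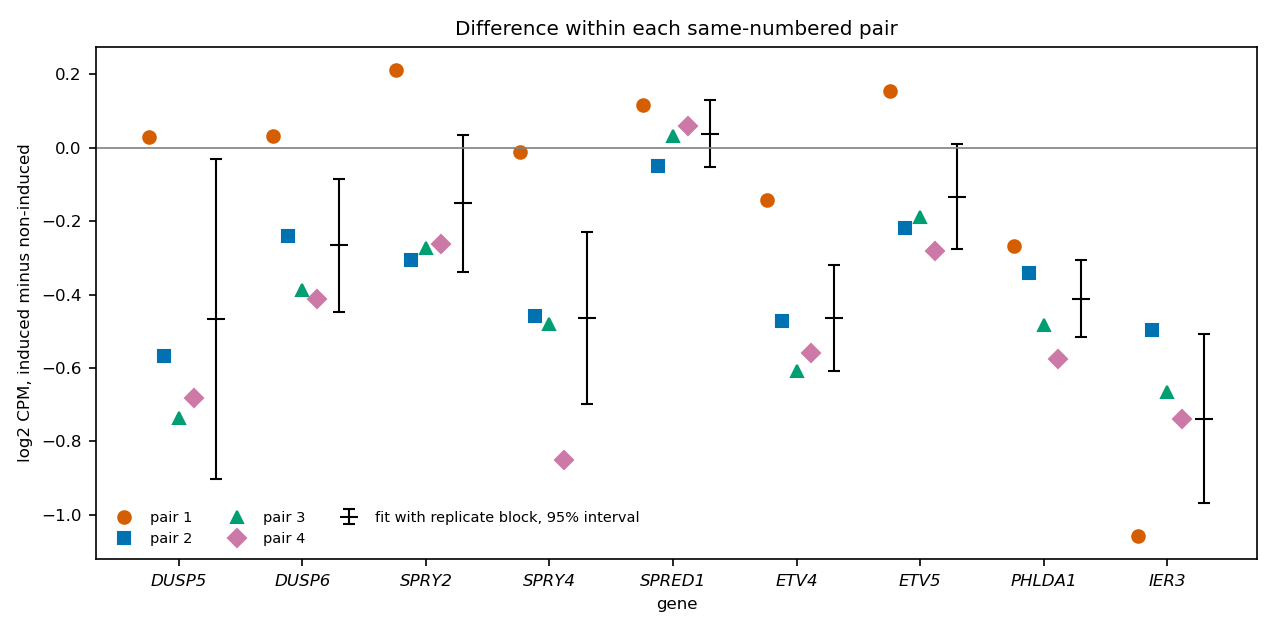
Difference in log2 CPM, induced minus non-induced, within each of the 4 same-numbered pairs for the 9 tested genes, with the log2 change and 95% interval of the fit with the block in black. For DUSP5, DUSP6, SPRY2, SPRY4, ETV5 and SPRED1 pair 1 lies at or above 0, apart from -0.01 for SPRY4, while for IER3 pair 1 is the lowest point at -1.06.

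Pair by pair, the 9 genes did not move alike. The median difference over them was 0.03 in log2 in pair 1, and -0.34, -0.48 and -0.56 in pairs 2 to 4, where the median of all tested genes was 0.00 to 0.01 in each pair. In pair 1, DUSP5 (0.03), DUSP6 (0.03) and SPRY4 (-0.01) were nearly level and SPRY2 (0.21) and ETV5 (0.15) higher, whereas in pairs 2 to 4 all 5 were below 0, at -0.85 to -0.19. ETV4 showed its smallest difference in pair 1 (-0.14) and so did PHLDA1 (-0.27). IER3 went the other way, with -1.06 in pair 1 and -0.50, -0.67 and -0.74 in pairs 2 to 4. IER3, ETV4, SPRY4 and PHLDA1 were lower in 4 of 4 pairs, as were 17.0% of all tested genes. With the block and without pair 1, 8 of the 9 genes fell, all except SPRED1, beside 5.79% of all genes called lower. Without pair 1 and without the block, 3 fell, DUSP5, ETV4 and IER3, beside 1.91% of all genes. CRB2 was lowest in induced library 1 among the induced libraries, though its rise within pair 1 was 209-fold, against 164- to 206-fold in the other pairs. The part of CRB2 in the differences of pair 1 was not tested.

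**Figure D3:**
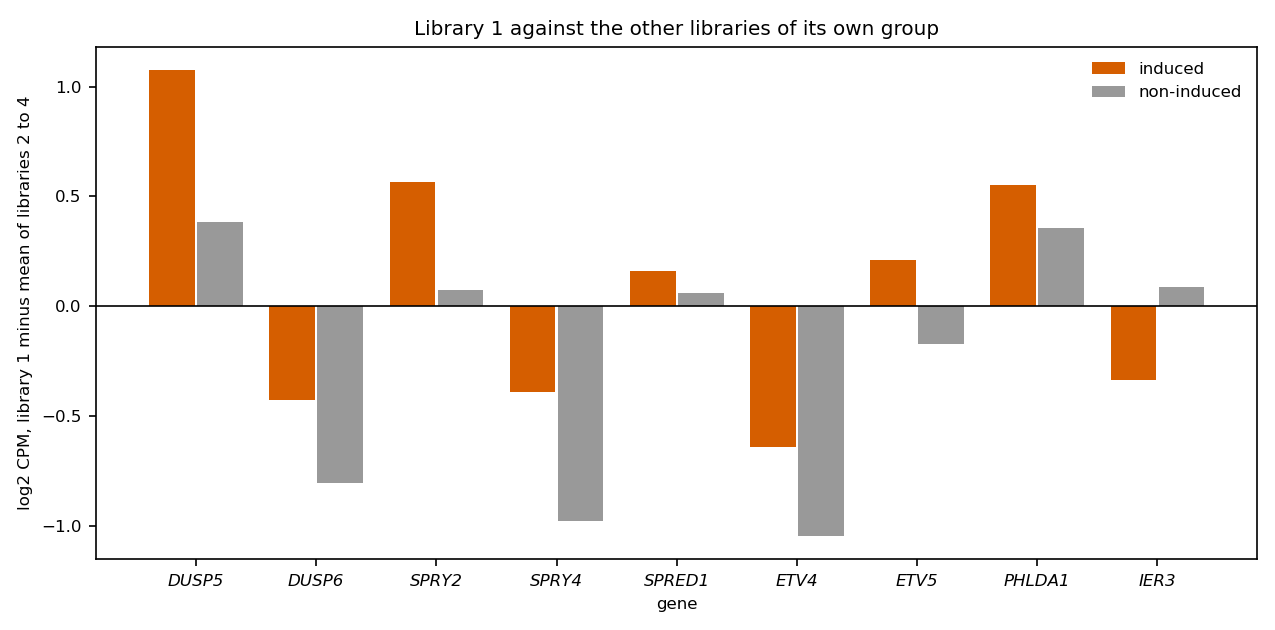
Log2 CPM of library 1 minus the mean of libraries 2 to 4 of the same group, for the 9 tested genes in induced (orange) and non-induced (grey) cells. Bars below 0 in both groups are those of DUSP6, SPRY4 and ETV4, and bars above 0 in both groups those of DUSP5, SPRY2, SPRED1 and PHLDA1.

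Library 1 also split the genes by level within each group. Set against the mean of libraries 2 to 4, library 1 was lower for DUSP6, SPRY4 and ETV4, with log2 differences of -0.43, -0.39 and -0.64 in induced and -0.81, -0.98 and -1.05 in non-induced cells. DUSP5 and PHLDA1 were higher in library 1, by 1.07 and 0.55 in induced and by 0.38 and 0.36 in non-induced cells, and SPRY2 by 0.57 in induced and 0.07 in non-induced cells. Over the 8 libraries DUSP6, SPRY4 and ETV4 varied together, with Pearson's r of 0.939 to 0.956 between each 2 of them, and DUSP5, SPRY2 and PHLDA1 formed another set with r of 0.807 to 0.885. These values describe 8 libraries that share the library 1 offset. Summed proliferation markers stood at 3445 CPM in library 1 and 3808 to 3901 CPM in libraries 2 to 4 of induced cells, and at 3495 CPM in library 1 and 3727 to 3884 CPM in libraries 2 to 4 of non-induced cells. Of the 12 markers 9 were lowest in library 1 of both groups, while MCM2, MCM5 and PCNA were highest there, and the part of proliferation in the offset was not tested. With the block 3 of the 12 were called, beside 13.8% of all tested genes, and 0 without it. AURKB fell by 0.23 in log2 (edgeR adjusted p = 0.00258) and CDK1 by 0.15 (0.0127), while MKI67 rose by 0.13 (0.0240). The AURKB call held without each pair, and those of CDK1 and MKI67 were lost without at least 1 pair.

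Other genes of the pathway were taken from lists by role, 102 distinct genes of which 95 were tested. Without the block edgeR called 0 of them and DESeq2 called 7. With the block 14 rose and 22 fell, 37.9% called against 13.8% of all tested genes, and the median log2 change was -0.03. The lists were chosen with earlier results of these data known, so this contrast is description and no test of the pathway. Of the upstream genes, 5 of 10 tested receptor tyrosine kinases rose and 1 fell (median 0.18), and 2 of 22 genes of the Ras to ERK cascade rose and 1 fell (median 0.00). Of 7 other MAP kinase phosphatases 1 rose and 1 fell, of 14 other inhibitors 2 rose and 4 fell, of 13 other outputs 2 rose and 6 fell, of 11 immediate early factors 1 rose and 3 fell, of 7 other ETS factors 0 rose and 3 fell, and of 12 ligands 1 rose and 3 fell. The genes named below were called with the block, at adjusted p of 3.89e-05 to 0.00412 in edgeR and also without each of the 4 pairs unless stated, and edgeR called none of them without the block when all 8 libraries were used. The 7 that DESeq2 called without the block were DUSP10, EGFR, EPHA4, FGFR1, LIF, MAFF and MAP2K1.

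**Figure D4:**
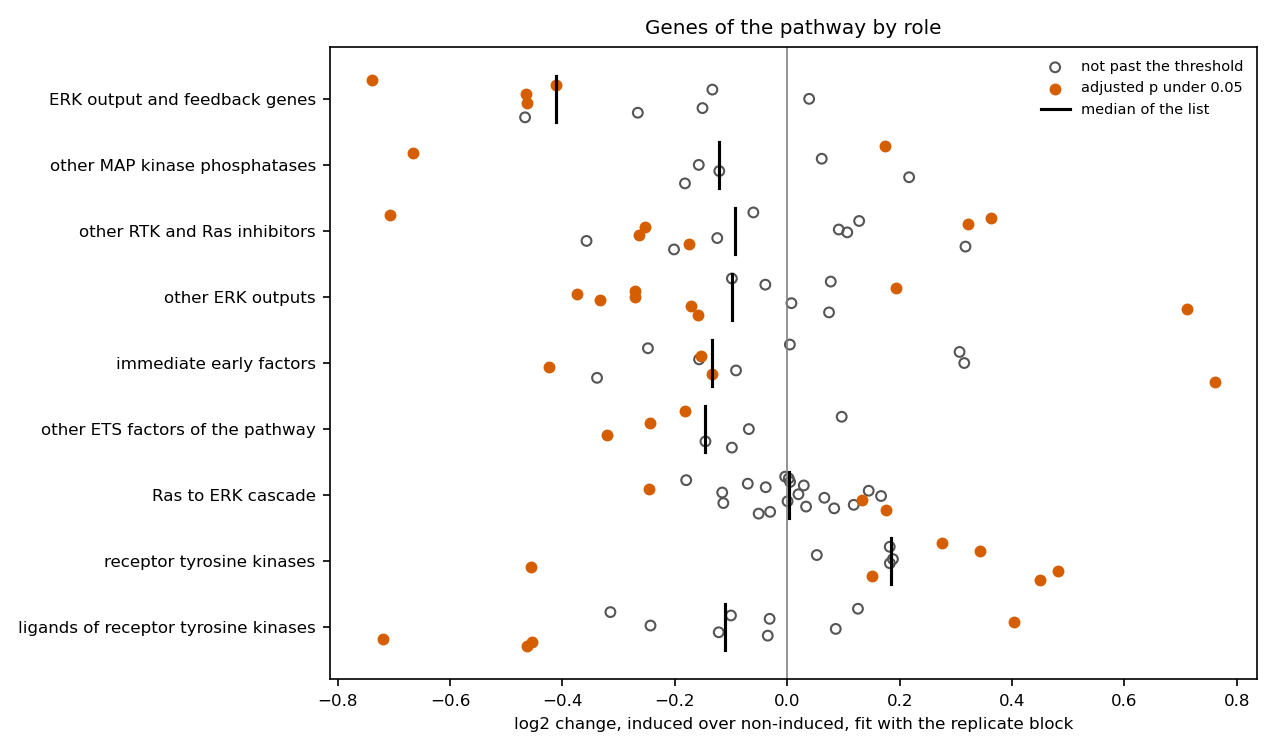
Log2 change with the replicate block, induced over non-induced, for each tested gene of the 9 lists, 1 point a gene. Filled points passed the threshold and black bars give the median of each list, which lies at -0.41 for the ERK output and feedback genes, near 0 for the cascade and at 0.18 for the receptors.

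EGFR, the epidermal growth factor receptor, was at 299.5 ± 17.2 CPM in induced and 221 ± 34.1 CPM in non-induced cells (SD, n = 4 each) and rose by 0.45 in log2. The receptor tyrosine kinase AXL rose by 0.28. FGFR1, a receptor for fibroblast growth factors, fell by 0.46, to 36.1 ± 2.27 CPM in induced cells, against 49.6 ± 5.78 CPM in non-induced cells. Of the ligands, HBEGF, which binds EGFR, fell by 0.46 (71.0 ± 23.7 CPM in induced and 99.3 ± 38.04 CPM in non-induced cells), while FGF2 rose by 0.40. In the cascade the MEK kinase gene MAP2K1 fell by 0.25, to 78.5 ± 3.11 CPM in induced cells, against 93.2 ± 5.78 CPM in non-induced cells.

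Among the relatives of the 10 genes, DUSP10, a phosphatase of the stress kinases JNK and p38, fell by 0.67 in log2, with 20.8 ± 3.75 CPM in induced and 32.9 ± 3.98 CPM in non-induced cells. ERRFI1, the feedback inhibitor of EGFR also called MIG6, fell by 0.26, while the Ras GTPase-activating protein gene RASAL2 rose by 0.32. LRIG1, which promotes loss of ErbB receptors, fell by 0.71. Its level was low, at 3.30 ± 2.14 CPM in induced and 5.43 ± 3.61 CPM in non-induced cells. In the libraries numbered 1 LRIG1 was nearly level, at 0.61 CPM (induced) and 0.65 CPM (non-induced). Of other outputs the cytokine LIF fell by 0.33 and the small MAF factor MAFF by 0.37, while the ephrin receptor EPHA4 rose by 0.71, at 4.50 ± 0.51 CPM in induced and 2.74 ± 0.09 CPM in non-induced cells. The AP-1 subunit JUNB fell by 0.42, and the ETS factors ETS2 and ELK3 by 0.32 and 0.24. RASA2, a Ras GTPase-activating protein gene, fell by 0.25 (adjusted p = 0.00595), and the matrix gene TNC rose by 0.19, though its change without the block fell below 0 when non-induced library 1 was left out (-0.070). FOS rose by 0.76 (adjusted p = 0.0257) at 1.98 ± 1.46 CPM in induced and 1.16 ± 0.87 CPM in non-induced cells, a call that was lost without pair 1, 2 or 4 (0.118, 0.0811 and 0.0778). Calls of the block fit that were likewise lost without at least 1 pair were DUSP16 (0.17), NRAS (0.13), SOS1 (0.18) and ERBB2 (0.15), which rose, and FOSL2 (-0.13), IER5 (-0.15), ERF (-0.18), AREG (-0.45) and EREG (-0.72), which fell, all as log2 changes.

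The genes outside the lists whose within-pair differences were most like the mean of the 9 were AOX1, UBE2MP1, HDGFL2, BRSK1 and PMAIP1, with Pearson's r of 0.995 to 1.00 over the 8 libraries after the mean of each pair was taken off. Only 4 differences stand behind each r, and 212 of 11406 genes searched had r above 0.95. Such an r also rises with a shared direction alone, so a high r does not show a like order over the pairs. Among the members themselves DUSP5 (r = 0.995) and DUSP6 (0.987) had the highest r with that mean. IER3 had 0.722, although its differences ran in another order over the pairs, and SPRED1 had -0.213. Each member is part of that mean, which raises its own r, so these values cannot be set beside those of the outside genes.

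Several of the genes overlap other genes, and the strand setting of the read counting is not given in the sources used here. ETV4 lies within the span of DHX8 on the opposite strand, sharing 68 exonic bases, and DHX8 had a log2 change of 0.10 with the block (edgeR adjusted p = 0.129). DUSP6, PHLDA1 and IER3 share 1875, 553 and 779, and 359 exonic bases with antisense genes that had 15 to 24 reads in all over the 8 libraries, against 2173, 15080 and 23964 reads on DUSP6, PHLDA1 and IER3. ETV5 shares 164 exonic bases with DGKG, at 1.06 ± 0.75 CPM in induced and 1.05 ± 0.65 CPM in non-induced cells.

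Most markers of other cell types were low. The mesangial marker PDGFRB was the highest of them, at 15.2 ± 2.22 CPM in induced and 11.9 ± 0.81 CPM in non-induced cells. Leukocyte markers summed to 2.19 to 2.93 CPM in induced and 3.41 to 3.92 CPM in non-induced libraries, which did not overlap. The 3 tested of 6, CSF1R, LST1 and CD68, had log2 changes of -0.65, -0.58 and 0.19 with the block. Of these 0 passed (edgeR adjusted p = 0.0586, 0.129 and 0.722). CSF1R and LST1 were lower in 4 of 4 pairs, as were 17.0% of all tested genes. The other 3, PTPRC, CD3E and MS4A1, had at most 1 read in any library. Mesangial and smooth muscle markers summed to 15.1 to 23.1 CPM in induced and 14.9 to 16.7 CPM in non-induced libraries, and of the 3 tested of 6 PDGFRB rose with the block (edgeR adjusted p = 0.0299), a call lost without pair 1, 3 or 4 (0.119, 0.104 and 0.161). Endothelial markers (2.22 to 5.59 CPM in induced, 2.98 to 5.60 CPM in non-induced) and tubular markers (0.285 to 0.505 CPM in induced, 0.298 to 0.373 CPM in non-induced) overlapped between the groups. The part of other cells in the results of the 10 genes was not tested. Of 7 tested podocyte markers TJP1 and PODXL rose with the block (edgeR adjusted p = 0.00192 and 0.0350), beside 13.8% of all genes called; neither passed without it (0.642 and 0.467), and the PODXL call was lost without pair 1, 2 or 4 (0.0874, 0.0864 and 0.155).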

How the data were processed

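Raw counts of reads on each Ensembl gene in 8 libraries, as deposited by the authors, were the starting point. Per the submitters' processing notes, bcl2fastq, Trimmomatic 0.38, HISAT2 2.1.0, HTSeq 0.11.1 and DESeq2 1.24.0 were used with GRCh38, and libraries were made with a directional kit, per the labels' protocols. A deposited normalized table was not used. Symbols and exon lengths came from GENCODE 29, which held 58275 of the 58395 genes.

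Genes were kept by filterByExpr (minimum count 10), scaled by TMM and compared with edgeR 4.0.16 under R 4.3.3 (quasi-likelihood test, robust, two-sided, Benjamini-Hochberg over all 15637 genes, threshold 0.05). CPM use all counted reads, and log2 CPM a prior count of 2. The main design has no block. Same-numbered libraries' deviations from group means correlated at 0.911, 0.704, 0.707 and 0.648 over 11500 genes, so the numbers were taken to pair the libraries; what the numbers mean is not given in the labels, different numbers gave -0.775 to 0.667, and the offset of the libraries numbered 1 alone raises some of these values. The block fit is given where it changes a call. Alternatives were DESeq2 1.42.0, other scalings and filters, no robust estimation, and libraries or pairs left out. The fits were also run on counts simulated with the pair effects measured here, which does not test the pairing itself. The 10 genes and the lists were chosen with earlier results of these data known. Named were all 10, CRB2, per list up to 4 called genes with the smallest block p, genes overlapping a member, and the 5 genes of at least 4 CPM outside the lists most like the members' mean; markers are given mainly as sums, and those named singly were chosen after their values were seen. Floors cover counting error only.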

Additional observations from a re-analysis of the deposited data

Results flagged for a closer look

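In 4 of 20 groups of 4 libraries looked at, 1 library lay apart from the other 3 by more than Dixon's 95% critical value, where chance gives about 1 in 20. DUSP5 stood at 59.3 CPM in induced library 1, against 31.1 CPM in the next highest induced library. IER3 stood at 162.8 CPM in non-induced library 2, the lowest of its group, against 192 CPM in the next. SPRED1 stood at 56.45 CPM in non-induced library 4, against 64.3 CPM in the next. CRB2 stood at 1731 CPM in induced library 1, against 4246 CPM in the next.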

How the results depend on the processing

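Without the block, 0 of the 9 tested members passed with RLE or upper-quartile scaling or without robust estimation, as in the main comparison, and 1 (IER3) with DESeq2, a 10 CPM filter, no filter or scaling to library totals. Leaving out single libraries without the block gave 0 to 1 members, and the replicate block without single pairs 2 to 8. The replicate block gave 4 members, as did DESeq2 with the block and upper-quartile scaling with the block; no robust estimation with the block gave 5, adding DUSP5, and 3 passed without both libraries numbered 1. Over all genes the count of 6 became 2159 with the replicate block, 2208 with upper-quartile scaling and the block, 2067 with no robust estimation and the block, 1107 with DESeq2 and the block, 240 with DESeq2, 37 with no filter and 543 without both libraries numbered 1. It ran from 3 to 16 without single libraries, and was 1721, 1969, 1254 and 909 with the block without pairs 1 to 4. Of the 95 other pathway genes, 0 in the main comparison, 36 passed with the replicate block, 37 with upper-quartile scaling and the block and 37 with no robust estimation and the block. The same count was 23 with DESeq2 and the block, 7 with DESeq2 and 14 without both libraries numbered 1. With the block and without pairs 1 to 4 it was 33, 37, 24 and 22. The direction of the 9 members held under all alternatives except for SPRED1, whose log2 change of 0.04 ran from -0.010 to 0.074 without single libraries. The range was -0.035 to 0.40 for DUSP16 (0.16 with all libraries), below 0 without induced library 1, and -0.070 to 0.49 for TNC (0.21), below 0 without non-induced library 1. The cause of these moves was not tested. The members' median log2 change stayed at -0.47 to -0.24. Low counts limit DUSP4, which had 20 reads in all.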
